A study of Mus musculus with 87 samples.

Results

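The 39 cell cycle genes followed here are the named parts of the machinery by which dividing cells of the embryo copy and segregate their DNA, taken by symbol from a list chosen with earlier results of these data known. They are 39 of the 43346 Ensembl genes in each deposited table, and all 39 passed the filter on low counts in each of the 16 comparisons. By role they comprise 5 D-type cyclins and kinases (Ccnd1, Ccnd2, Ccnd3, Cdk4, Cdk6), 5 genes of the cyclin E and E2F step (Ccne1, Ccne2, Cdk2, E2f1, E2f2), and 9 genes that license replication origins (Cdc6, Cdt1, Gmnn, Mcm2, Mcm3, Mcm4, Mcm5, Mcm6, Mcm7). A further 4 serve DNA synthesis and nucleotide supply (Pcna, Rrm1, Rrm2, Tyms), 13 act in mitosis (Mki67, Top2a, Ccna2, Ccnb1, Ccnb2, Cdk1, Cdc20, Aurka, Aurkb, Bub1, Bub1b, Plk1, Birc5), and 3 are inhibitors of cyclin-dependent kinases (Cdkn1a, Cdkn1b, Cdkn2c).

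The study removed single boundaries between topologically associating domains, named B2 to B8, from the genome of FVB mice with CRISPR/Cas9 and measured RNA in homozygous and littermate wild-type embryos at E11.5. There were 64 RNA-seq libraries: 16 of face, 20 of heart, 12 of lung and 4 each of gut, forebrain, midbrain and neural tube. Line B2 gave 4 homozygous and 4 wild-type hearts and 6 lungs of each genotype. Lines B3 and B5 gave 2 homozygous and 2 wild-type faces and hearts, B4 guts and midbrains, and B8 forebrains and neural tubes in the same numbers. Lines B6 and B7 gave 2 homozygous and 2 wild-type faces each, and 2 hearts each from homozygous embryos alone. Both genotypes carry no other allele that the labels name, and no embryo was treated. Each tissue is a whole dissected part with many cell types, so that fewer dividing cells and less RNA per dividing cell cannot be told apart in any value below.

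Cyclins are proteins that rise and fall through the cell cycle and switch on their partner kinases. D-type cyclins with Cdk4 or Cdk6 act first, in response to growth signals, and release the E2F factors, which turn on cyclin E and the genes of DNA replication. Genes of mitosis are switched on later, through promoter elements bound by the DREAM and MuvB complexes and NF-Y, and CDK inhibitors hold the kinases back as cells leave the cycle to differentiate. Around E11.5 most embryonic tissues are still largely proliferating, while heart muscle, neurons and primitive red cells have begun to differentiate.

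To show the sequence elements by which such genes are commonly grouped, RefSeq promoters (250 bases before to 50 after the start of transcription, build GRCm38.p6) were read for the members. The table held 37 promoters of 32 members, and none for Ccnd1, Ccnd2, Ccne2, Gmnn, Mcm4, Ccna2 and Aurkb. Both strands were searched for E2F sites (TTTCCCGC, TTTGGCGC, TTTCGCGC or TTTGCCGC), for the CHR element (TTTGAA or TTCGAA) and for the NF-Y element (CCAAT). The 7 promoters below are those of members on which the results turn, Mcm5 and Mcm6 for licensing, Cdk1, Top2a and Mki67 for mitosis, and 1 of the 2 promoters each of Ccnd3 and Cdkn1a. Capitals mark the letters of any of these motifs, as read on either strand. Neighbouring E2F matches overlap each other in Mcm5 and in Mcm6.
Mcm5 (chr8:75109259-75109558, plus strand): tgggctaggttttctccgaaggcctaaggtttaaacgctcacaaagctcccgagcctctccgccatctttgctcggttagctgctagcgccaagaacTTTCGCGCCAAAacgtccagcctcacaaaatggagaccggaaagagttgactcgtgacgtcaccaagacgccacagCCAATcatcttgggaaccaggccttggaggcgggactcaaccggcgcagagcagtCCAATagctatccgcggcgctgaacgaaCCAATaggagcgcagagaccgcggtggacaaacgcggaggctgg
Mcm6 (chr1:128359656-128359955, minus strand): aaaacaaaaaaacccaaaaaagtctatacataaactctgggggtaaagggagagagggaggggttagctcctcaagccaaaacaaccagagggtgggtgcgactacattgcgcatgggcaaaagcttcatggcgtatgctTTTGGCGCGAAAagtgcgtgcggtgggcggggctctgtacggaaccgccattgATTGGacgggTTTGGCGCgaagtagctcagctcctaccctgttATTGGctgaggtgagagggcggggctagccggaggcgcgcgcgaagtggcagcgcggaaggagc
Cdk1 (chr10:69352863-69353162, minus strand): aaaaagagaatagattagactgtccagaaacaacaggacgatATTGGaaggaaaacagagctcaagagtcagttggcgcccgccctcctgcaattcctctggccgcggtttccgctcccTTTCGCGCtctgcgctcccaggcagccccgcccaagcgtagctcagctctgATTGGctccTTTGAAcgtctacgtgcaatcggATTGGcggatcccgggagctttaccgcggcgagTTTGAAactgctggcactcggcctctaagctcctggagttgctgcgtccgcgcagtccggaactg
Top2a (chr11:99024140-99024439, minus strand): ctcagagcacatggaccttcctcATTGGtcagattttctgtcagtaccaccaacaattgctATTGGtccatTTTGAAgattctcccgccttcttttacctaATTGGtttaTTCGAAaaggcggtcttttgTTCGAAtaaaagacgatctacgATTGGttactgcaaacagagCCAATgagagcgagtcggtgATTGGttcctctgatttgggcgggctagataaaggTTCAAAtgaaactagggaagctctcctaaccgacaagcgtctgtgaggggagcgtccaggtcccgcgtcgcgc
Mki67 (chr7:135716330-135716629, minus strand): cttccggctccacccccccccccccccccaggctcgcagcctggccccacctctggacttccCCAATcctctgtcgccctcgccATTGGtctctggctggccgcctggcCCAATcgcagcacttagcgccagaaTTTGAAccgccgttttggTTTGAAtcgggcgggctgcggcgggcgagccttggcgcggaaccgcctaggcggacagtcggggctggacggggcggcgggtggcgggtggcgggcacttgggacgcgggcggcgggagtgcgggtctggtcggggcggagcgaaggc
Ccnd3 (chr17:47504801-47505100, plus strand): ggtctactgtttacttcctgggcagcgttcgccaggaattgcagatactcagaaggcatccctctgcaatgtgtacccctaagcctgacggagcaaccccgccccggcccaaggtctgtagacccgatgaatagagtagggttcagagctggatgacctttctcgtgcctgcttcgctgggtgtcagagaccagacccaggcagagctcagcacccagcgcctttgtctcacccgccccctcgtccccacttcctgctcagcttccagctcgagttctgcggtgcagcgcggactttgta
Cdkn1a (chr17:29093519-29093818, plus strand): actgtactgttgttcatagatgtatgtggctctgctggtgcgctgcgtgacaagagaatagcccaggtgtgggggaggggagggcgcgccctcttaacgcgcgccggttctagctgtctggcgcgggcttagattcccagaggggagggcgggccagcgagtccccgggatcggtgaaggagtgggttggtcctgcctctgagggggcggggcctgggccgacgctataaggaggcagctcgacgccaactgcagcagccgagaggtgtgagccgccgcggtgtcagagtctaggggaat

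The roles differed in these letters. An E2F site stood in 6 of the 7 licensing members with a promoter, in 1 of 11 mitotic members (Cdk1) and in 2.6% of the 27025 genes of the table. A gene was counted where any of its promoters held the letters. Of the other roles, E2F sites stood in 2 of 4 cyclin E and E2F members and in 0 of 4 synthesis members. They stood in 0 of 3 D-type members and in 0 of 3 inhibitors. A CHR element together with an NF-Y element stood in 9 of the 11 mitotic members, in 2 of the 7 licensing members and in 8.61% of all genes. Top2a held 4 CHR and 6 NF-Y elements, and Mki67 held 2 and 3. The promoters of Ccnd3 and Cdkn1a printed above held none of the 3 motifs, as did 49.8% of the 32851 promoters of the table, while the second Ccnd3 promoter (chr17:47593217-47593516) held 1 NF-Y element and the second Cdkn1a promoter none. A match describes letters in a window of 300 bases and is no evidence of binding, and its absence says only that these letters do not occur in the window.

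Library depth was 8.4 M to 31.8 M counts, and at least 17.1 M in all libraries but the wild-type B2 lungs E5420-07 and E5420-09. These lungs stood apart, with mitochondrial genes at 0.362% and 1.54% of their counts where the remaining lungs had 11.3 to 14.05%, and the 10 most abundant genes of E5420-09 took 90.11% of its counts. Results for lung are therefore also given without them. The 6 markers fixed for each tissue were all detected at a median of at least 1 CPM in the tissue of their name, and their sum was highest there in each case, apart from the gut list, whose median of 227 CPM was the same in lung and gut. The paper states that the deletions left nearby protein-coding genes intact. Whether they remove another measured gene was not examined, and the genotype labels were not checked by expression. Levels are given as CPM, counts scaled to library size, after TMM scaling of all 64 libraries together, and members are compared with each other within a tissue only by the deposited TPM, which is per transcript length. Tests were edgeR's quasi-likelihood tests on all genes, and a member was called where its Benjamini-Hochberg adjusted p over all genes tested was below 0.05. These p-values set a difference between groups against the spread between libraries, which edgeR estimates with information shared among genes. The labels do not say which libraries came from 1 embryo.

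Most of the members varied less than 2-fold between tissue medians. The same spread is not given for all genes, so this is not shown to be particular to the members. The highest tissue median of a member was 1.92-fold the lowest at the median of the 39, and 24 of 39 stayed under 2-fold. Ccnb2, a B-type cyclin of mitotic entry, varied least (1.19-fold), with its lowest median in midbrain (83.9 CPM) and its highest in forebrain, and even these 2 ranges overlapped (80.1 to 94.7 against 94 to 117 CPM). The widest spreads belonged to regulators at the start of the cycle. They were 14.1-fold for Cdkn1a and 10.9-fold for Cdk6, and the 5 D-type cyclins and kinases had a median spread of 3.99-fold against 1.89-fold for the 9 licensing members. Lung set much of this: over the other 6 tissues the spread was 3.2-fold for Cdkn1a, 3.39-fold for Cdk6 and 1.7-fold for Mki67, and the medians were 3.39-fold for the D-type group and 1.86-fold for licensing. Forebrain held the highest median of 17 members, gut of 8 and lung of 7. Heart held the lowest median of 18 members, among them Mcm2 to Mcm7, Pcna and Rrm1, and the highest of Ccnd3 alone. These orders across tissues of different lines are descriptions, since line and tissue cannot be told apart outside the 4 comparisons within lines.

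**Figure D1:**
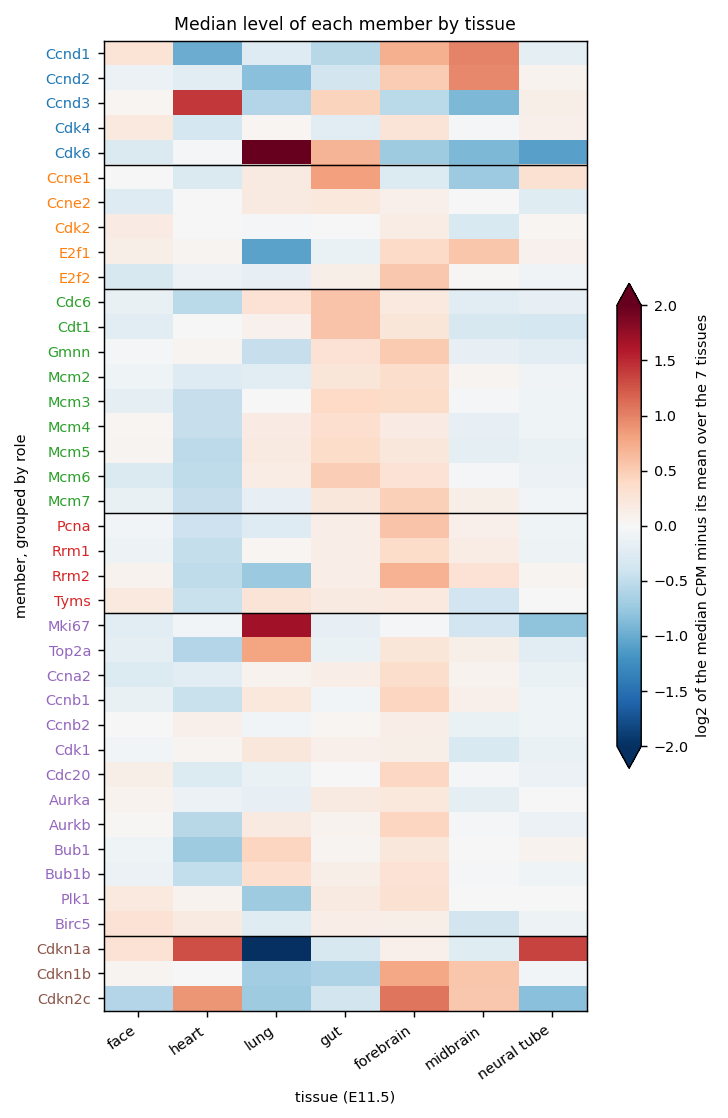
Median level of each of the 39 members in 7 tissues at E11.5, as the log2 of the median CPM minus its mean over the tissues (red higher, blue lower, colour scale from −2 to 2, rows grouped and label colours set by role). Ccnd3 in heart, Cdk6 and Mki67 in lung, and Cdkn1a in heart and neural tube are the strongest reds, and the licensing and synthesis rows are mostly pale, blue in heart.

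Within a tissue, the kinase Cdk4 was the most abundant member of its group in all 7 tissues, at median TPM from 383 in lung to 1109 in forebrain, and Cdk6 the least, at 1.8 to 7.21 TPM. Both kinases pair with D-type cyclins. Cdk4 made up at least 97.8% of the summed TPM of the pair in every library. Mcm7 led the licensing genes in each tissue (81.4 to 330.0 median TPM) and Cdc6, which loads the Mcm helicase, was lowest (11.5 to 38.6). Pcna, the sliding clamp of the DNA polymerases, led the synthesis genes (155 to 693 median TPM). Cdk1 led the mitotic genes in 6 tissues (227 to 346 median TPM), and Top2a led them in lung (161).

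The 3 D-type cyclins were used in unequal proportions. Ccnd3 TPM made up a median of 78.3% of the summed D-type cyclin TPM in heart (56.4 to 89.6%, 20 libraries), 63.2% in gut, 50.6% in neural tube, 47.4% in face, 45% in lung, 30.2% in forebrain and 19.7% in midbrain (18.6 to 21%, 4 libraries). The Ccnd3 share in heart did not overlap that in face, forebrain, midbrain or neural tube. By CPM, Ccnd3 was lowest at 369, had a median of 652 and was highest at 916 in the 20 hearts. In midbrain Ccnd3 was 139, 126, 145 and 121 CPM. Every heart was therefore above every midbrain for Ccnd3, and the one lung within reach of the hearts was E5420-07, at 406 CPM against 154 to 171 CPM in the others.

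The other D-type cyclins, Ccnd1 and Ccnd2, were highest in midbrain. Ccnd1 was 579.6, 571, 643 and 600.4 CPM in midbrain, against 99.6, 148 and 322 CPM (lowest, median, highest) in the 20 hearts. The heart at 322 CPM was A21, a homozygous B5 heart, and the next highest heart was at 199 CPM, so that A21 overlapped the faces (297 to 392 CPM) and the other hearts did not. A21 also had the highest sums of 4 marker lists among the hearts, with face markers at 733 CPM (105 to 403 in the other 19), forebrain markers at 186 CPM (1.44 to 42.6), midbrain markers at 44.3 CPM (0 to 5.43) and neuron markers at 523 CPM (21.1 to 68.4). Its heart markers were the lowest, at 6544 CPM where the others had at least 9369, and the part of other tissue in its Ccnd1 was not tested. Ccnd2 was 926, 812, 778 and 829.7 CPM in midbrain and 153, 236 and 402 CPM (lowest, median, highest) in the 12 lungs, with both ends of that range set by E5420-07 (153 CPM) and E5420-09 (402 CPM). For Ccnd2 midbrain did not overlap forebrain, the next in the order of tissues (778 to 926 against 421 to 708 CPM). Later neighbours overlapped, as with face (352 to 487 CPM) and heart (179.7 to 493 CPM).

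**Figure D2:**
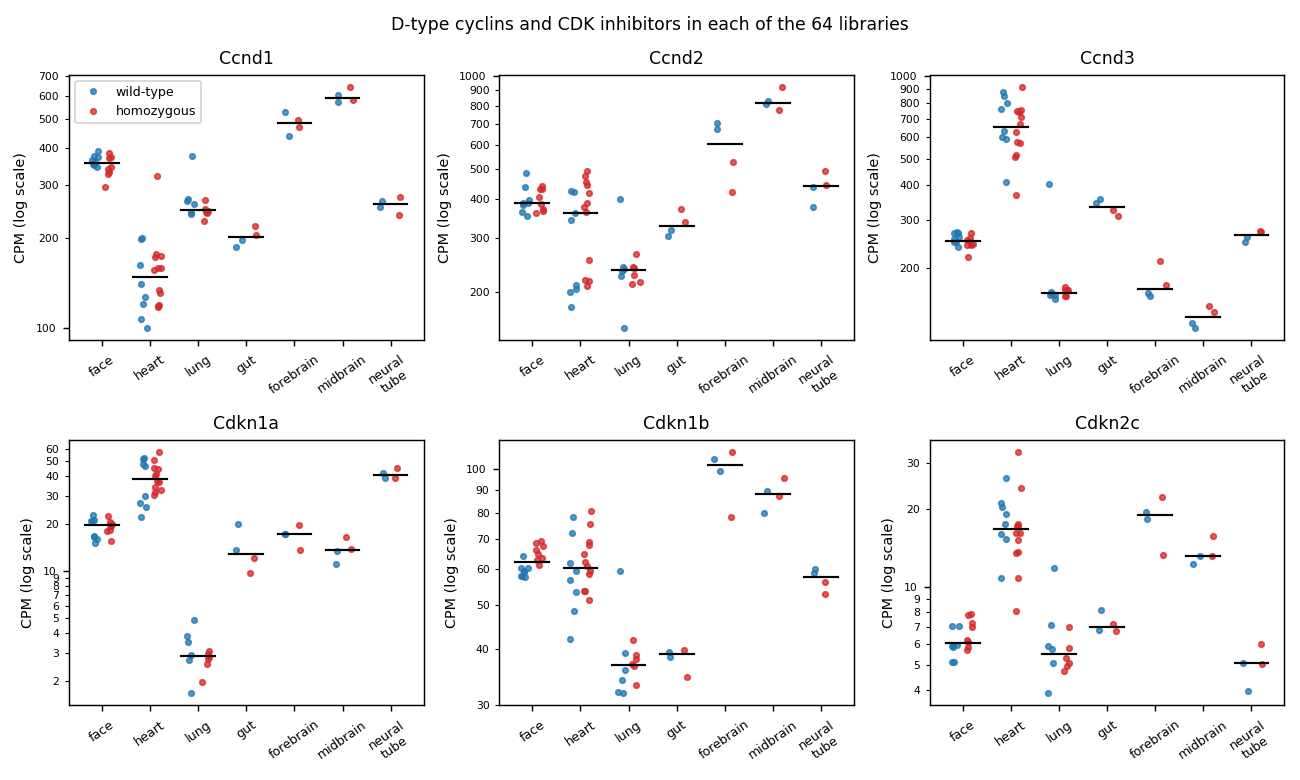
CPM (log axis) of the 3 D-type cyclins and the 3 CDK inhibitors in each of the 64 libraries by tissue, with wild-type libraries in blue, homozygous libraries in red and the tissue median as a black line. Ccnd3 is highest in heart and lowest in midbrain (medians 652 and 132 CPM), Ccnd1 and Ccnd2 are highest in midbrain (590.0 and 821 CPM), and Cdkn1a has medians of 38.7 CPM in heart, 40.6 CPM in neural tube and 2.87 CPM in lung.

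The inhibitors followed patterns of their own. Cdkn1a, which blocks CDK complexes and accumulates in cells leaving the cycle, had medians of 40.6 CPM in neural tube (38.7 to 44.9) and 38.7 CPM in heart (22 to 57.1), and these overlapped. Its median was 19.5 CPM in face, 17.1 CPM in forebrain, 13.5 CPM in midbrain and 12.7 CPM in gut, with overlapping ranges among these 4 tissues. The 12 lungs were lowest for Cdkn1a, at 1.66, 2.87 and 4.84 CPM (lowest, median, highest), and overlapped no other tissue. Cdkn1b, an inhibitor of the same family, was highest in forebrain (median 102 CPM) and midbrain (88.1 CPM) and lowest in lung (36.9 CPM) and gut (38.9 CPM). Cdkn2c, which binds Cdk4 and Cdk6 directly, had medians of 18.9 CPM in forebrain and 16.7 CPM in heart and of 5.06 CPM in neural tube. The range of Cdkn2c in heart (8.07 to 33.2 CPM) overlapped those of forebrain and midbrain.

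Of the proliferation markers most used by histologists, Mki67 encodes a coat protein of mitotic chromosomes and Top2a a topoisomerase that untangles sister DNA. In lung Mki67 was 163, 728 and 957 CPM (lowest, median, highest), and the lowest of these was E5420-07. The medians of Mki67 elsewhere were 219 CPM in heart, 220.3 CPM in forebrain, 204 CPM in gut, 194 CPM in face, 174 CPM in midbrain and 129.9 CPM in neural tube, all with overlapping neighbours. Top2a had a median of 799.6 CPM in lung, 549 CPM in forebrain and 307 CPM in heart. Libraries of a tissue also differed. The highest library was at the median of the members 1.2-fold the lowest in gut, 1.35-fold in face and 1.85-fold in heart, and in lung 1.99-fold with and 1.2-fold without the pair that stood apart. Single members could differ more within a tissue than between tissue medians, as Mki67 did with 8.39-fold among the hearts against 5.6-fold between the medians.

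Face and heart were compared within 6 strata of line and genotype, 12 libraries of each tissue. Ccnd1, 7 of 9 licensing, all 4 synthesis and 8 of 13 mitotic members were higher in face, and Ccnd3, the inhibitors Cdkn1a and Cdkn2c, and Mki67 were higher in heart. Of the 39 members, 23 were called higher in face, where 39.8% of the 15101 genes tested were called higher, and 8 were called lower, where 40.1% of all genes were. The median log2 fold change was 0.21 over the members and 0.00 over all genes. With line B7 alone 12 were called higher, and with B5 or B6 alone 5 were called lower. The share of all genes called in these fits is not given. The median log2 fold change of the members was 0.10 in B7 alone (0.01 over all genes), 0.17 in B5 (0.02) and 0.31 in B6 (0.04). The hearts were of lines B3, B5, B6 and B7, since B2 gave no faces. In the 8 B2 hearts Mki67 was 90.4 to 135 CPM, against 108 to 294 CPM in the 16 faces. Cdk6 was 1.47 to 2.83 against 3.13 to 8.36 CPM. The higher Mki67 and Cdk6 of heart thus did not extend to the B2 hearts, which were not tested against faces.

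The largest difference upward was that of Ccnd1, at 355 ± 27.2 CPM in face and 179 ± 48.9 CPM in heart (SD, n = 12 each, log2 fold change 0.99, SE 0.10, adjusted p = 1.15e-08 by edgeR). In line B5 alone, which holds A21, the log2 fold change of Ccnd1 was 0.87, and in the lines B3, B6 and B7 alone it was 1.04, 1.02 and 1.24. Ccnd3 was 250.1 ± 13 CPM in face and 572 ± 111 CPM in heart (n = 12 each, log2 fold change −1.20, SE 0.09, adjusted p = 3.30e-10 by edgeR), and no face reached the lowest heart (219.6 to 269 against 369 to 755 CPM). Thus Ccnd1 and Ccnd3 differed in opposite directions, while Ccnd2 was 404 ± 37.2 against 414 ± 47.9 CPM and was not called. The kinase Cdk6 was lower in face (5.27 ± 1.56 against 8.04 ± 1.85 CPM, log2 fold change −0.61).

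In the cyclin E group, Ccne1, the G1 cyclin that activates Cdk2, was highest (log2 fold change 0.46, 56.8 ± 5.85 against 40.9 ± 5.49 CPM). E2f2, an E2F activator, was lower in face (log2 fold change −0.94, 19.5 ± 1.74 against 39.2 ± 19.4 CPM), though not in line B6 alone (0.04). The spread of E2f2 was wider in heart than in face, and its values in single hearts follow below. Among licensing genes Mcm5 stood highest (258 ± 19.3 against 169 ± 29 CPM, log2 fold change 0.61), with no overlap of the tissues. The lowest was Cdt1, the loading factor (65.9 ± 3.95 against 70.7 ± 6.77 CPM, log2 fold change −0.11), a call lost with DESeq2 and within each line alone. Tyms, which makes thymidylate, led the synthesis group (103 ± 7.41 against 62.2 ± 16 CPM, log2 fold change 0.75), and Rrm1, the large subunit of ribonucleotide reductase, was its lowest (log2 fold change 0.23).

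Among mitotic genes the kinase Aurkb of the chromosomal passenger complex was highest (80.6 ± 6.65 against 53.1 ± 9.89 CPM, log2 fold change 0.61) and did not overlap between tissues. Mki67 was the lowest, at 183 ± 43.6 CPM in face and 342 ± 169.7 CPM in heart (log2 fold change −0.84, SE 0.17, adjusted p = 0.000164 by edgeR), while Top2a was 399.6 ± 63.7 against 363 ± 58.7 CPM and not called. Within line B5 alone the difference of Mki67 was −0.19 and not called. Of the inhibitors, Cdkn2c was 6.63 ± 0.77 CPM in face and 17.5 ± 7.25 CPM in heart (log2 fold change −1.38) without overlap, and Cdkn1a was 19 ± 2.17 against 34.4 ± 8.12 CPM (log2 fold change −0.85). Cdkn1b was 63.9 ± 3.59 against 67.2 ± 8.24 CPM and not called. Of the 31 members called, 26 had the same sign of difference in each of the lines B3, B5, B6 and B7 alone. Of the erythroid markers, 6 of 6 were called lower in face (summed 4353 to 7324 CPM against 9038 to 136724 CPM in heart), and their part in these differences was not tested.

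**Figure D3:**
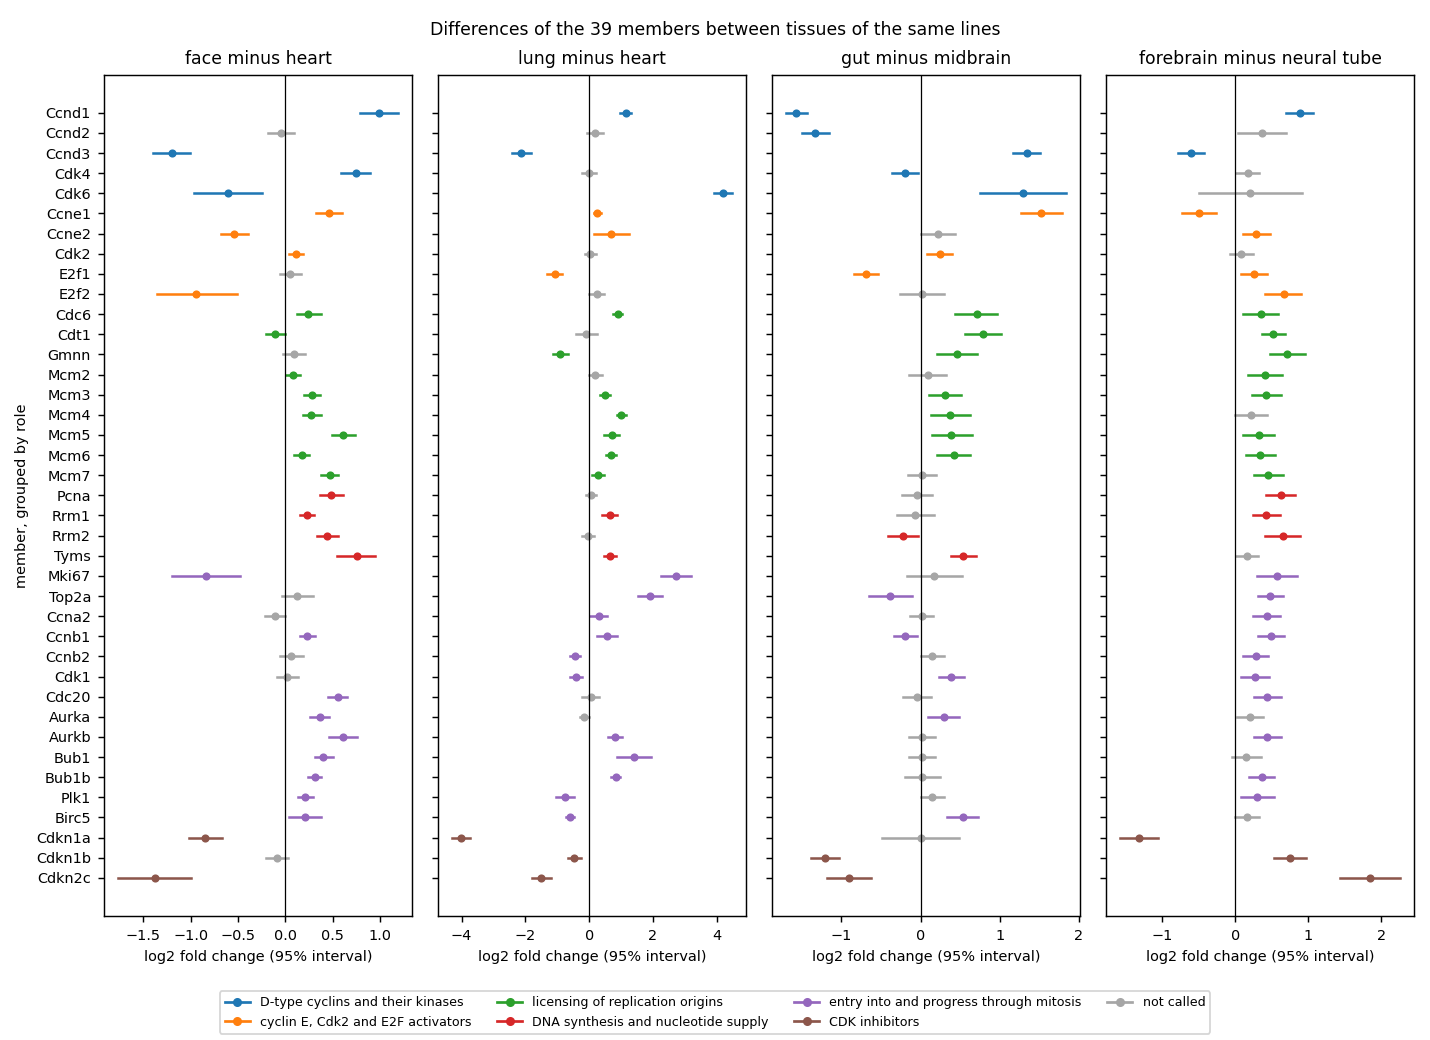
Log2 fold change with its 95% interval for the 39 members in the 4 comparisons of tissues within lines (first tissue minus second, colours by role, grey where not called). The horizontal scales differ between panels, and the fold changes run from −1.38 to 0.99 for face minus heart and from −4.02 to 4.21 for lung minus heart.

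The hearts differed among themselves in a group of members. Ordered by the share of counts from 6 erythroid marker genes (4 globins, Alas2 and Slc4a1), the 20 hearts ran from 0.995% in A21 (B5, homozygous) to 11.9% in A4 (B7, homozygous), while the 16 faces held 0.509 to 1.09%. E2f2 was 21 CPM in A21 and 12 CPM in A6, which had 0.998% erythroid counts, and 60 and 78.4 CPM in A22 and A4, the hearts with 11.2% and 11.9%. The hearts with the most erythroid counts were thus also those with the most E2f2. Cdkn2c was 8.07 and 10.8 CPM in A21 and A6 and 24 and 33.2 CPM in A22 and A4, while the hearts with 9.13% (A14 of B3 and A24 of B5, both wild-type) had 26.4 and 15.3 CPM, and A53 of B2, with 2.17%, had 17.2 CPM. The order of Cdkn2c thus did not follow that of the erythroid counts throughout. The part of red cells in these values was not tested.

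Mki67 and Cdk6 divided the hearts by line as well. In the 8 B2 hearts Mki67 was 90.4, 107 and 135 CPM (lowest, median, highest), and in the other 12 hearts it was 168 to 758 CPM, with the highest in A4. No B2 heart reached a heart of another line. Cdk6 was 1.47 to 2.83 CPM in B2 hearts and 4.37 to 10.8 CPM in the others, and Ccnd2 was 179.7 to 254 CPM against 342 to 493 CPM. E2f2 was 14.7 to 20.7 CPM in B2 hearts. Of the other hearts only A6, at 12 CPM, was lower, and the rest were at 21 to 78.4 CPM, above every B2 heart. B2 hearts were within the range of the other hearts for Cdkn2c (13.6 to 21 CPM). The low Mki67, Cdk6 and Ccnd2 of B2 hearts were present in wild-type and homozygous hearts alike. Line, collection and sequencing cannot be told apart for these differences.

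**Figure D4:**
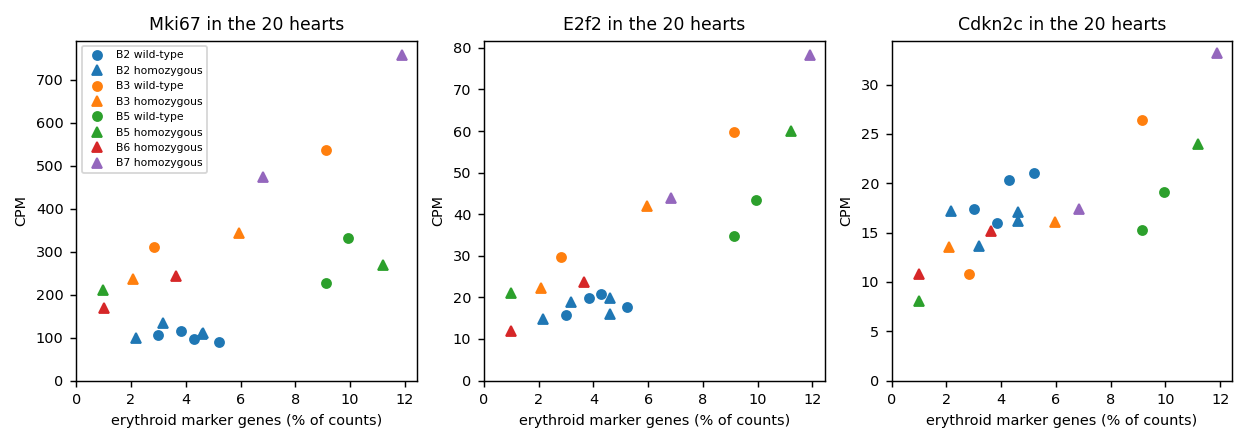
CPM of Mki67, E2f2 and Cdkn2c in the 20 hearts against the percent of counts from 6 erythroid marker genes, with colour for the line, circles for wild-type and triangles for homozygous embryos. E2f2 is 12 and 21 CPM in the 2 hearts with the fewest erythroid counts and 60 and 78.4 CPM in those with the most, and the 8 blue B2 hearts lie at the bottom for Mki67 (90.4 to 135 CPM) at middle erythroid shares.

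Lung and heart were compared within line B2, 12 lungs against 8 hearts. Mki67, Top2a and Cdk6 were far higher in lung, and Cdkn1a and Ccnd3 far lower. Of the 39 members, 19 were called higher in lung, where 41.7% of the 15381 genes tested were called higher, and 10 lower, where 38.9% of all genes were. The median log2 fold change was 0.25 over the members and 0.06 over all genes. Without E5420-07 and E5420-09, 35 members were called, 29 of them shared, and Ccnd2, E2f2, Cdt1, Mcm2, Pcna and Aurka were added. The median log2 fold change was then 0.26 over the members and 0.06 over all genes. The share of all genes called in that fit is not given, so the added calls are not read as a result about the members.

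Cdk6 was 28.9, 35.5 and 47 CPM (lowest, median, highest) in lungs and 1.47, 1.83 and 2.83 CPM in hearts of B2, a log2 fold change of 4.21 (SE 0.13, adjusted p = 5.39e-17 by edgeR). Mki67 was 714 ± 213 CPM in lung (n = 12) and 107 ± 13.7 CPM in heart (n = 8), a log2 fold change of 2.73, and even the lowest lung (163 CPM) was above the highest B2 heart (135 CPM). The 12 hearts of other lines reached 758 CPM and overlapped the lungs for Mki67, and held more Cdk6 (4.37 to 10.8 CPM) than the B2 hearts. Top2a had a log2 fold change of 1.90 (776 ± 187 against 207 ± 14.6 CPM), with the lung E5420-07 at 209 CPM inside the range of the hearts. Without the 2 lungs that stood apart these values were 4.19 for Cdk6, 2.82 for Mki67 and 2.04 for Top2a.

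Cdkn1a was 2.96 ± 0.834 CPM in lung and 46.5 ± 8.12 CPM in heart (log2 fold change −4.02, SE 0.14, adjusted p = 1.85e-16 by edgeR). Every B2 heart (30.5 to 57.1 CPM) was several times above every lung for Cdkn1a. Ccnd3 was 183 ± 70.3 against 794 ± 80.4 CPM (log2 fold change −2.13), and −2.25 without the 2 lungs. All 3 inhibitors were called lower in lung, Cdkn2c at a log2 fold change of −1.50 and Cdkn1b at −0.47. Ccnd1 was 2.22-fold higher in lung (261 ± 38.1 against 117 ± 9.9 CPM) with no overlap.

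E2f1 was lower in lung (21.6 ± 6.09 against 45.2 ± 4.76 CPM, log2 fold change −1.08) and Ccne2 was the highest of the cyclin E group (log2 fold change 0.69), although E5420-07 was at 3.82 CPM for Ccne2 and the other lungs at 37.1 to 47.5 CPM. In licensing, the helicase subunit Mcm4 was 2.02-fold higher in lung (214 ± 17.5 against 106 ± 7.52 CPM), and Gmnn, the inhibitor of Cdt1, was lower (32.1 ± 6.46 against 60.8 ± 3.64 CPM, log2 fold change −0.90). Tyms was 109 ± 16 against 69.4 ± 4.7 CPM (log2 fold change 0.65), and Rrm2, the small subunit of ribonucleotide reductase, was 124 ± 17.2 against 127 ± 6.95 CPM and not called. Plk1, a kinase of mitotic entry, was the lowest mitotic gene (84.4 ± 28.9 against 139.6 ± 13.9 CPM, log2 fold change −0.75). Mitotic genes thus moved in both directions here, 7 called higher and 4 lower (Plk1, Birc5, Ccnb2 and Cdk1).

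Marker sums differed between lung and heart as well. Heart markers were 10.0 to 43.9 CPM in lungs and 14244 to 27103 CPM in B2 hearts (6 of 6 called lower), gut markers 182 to 458 against 2.52 to 35.7 CPM (3 of the 4 tested called higher), erythroid markers 10691 to 41456 against 22682 to 60094 CPM (3 of 6 called lower) and neuron markers 30.7 to 120.0 against 21.1 to 36.2 CPM (4 called higher and 3 lower of 8). Mitochondrial genes took 1.86 to 3.14% of the counts of the B2 hearts, against the 11.3 to 14.05% of the lungs apart from E5420-07 and E5420-09. The part of these in the members' differences was not tested.

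Transcript length moved with this comparison. With genes in 3 equal classes of mean transcript length (up to 1919, up to 3334 and more bases), the median log2 fold change of all genes was −0.61 in the short, −0.03 in the middle and 0.85 in the long class, and that of the members was −0.28, 0.27 and 0.89. Mki67, the longest member (10075 bases), Top2a (3407 bases) and Cdk6 (3482 bases) fell in the long class, and Gmnn (959 bases), Cdk1 (958 bases), Birc5 (975 bases), Ccnd3 (1892 bases) and Cdkn1a (1819 bases) in the short. In the other 3 comparisons of tissues the medians of all genes by class stayed between −0.12 and 0.19. The part of length in the lung values was not tested, and the lungs have another kind of sample code than the hearts, so that tissue and run cannot be told apart.

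Gut and midbrain were compared within line B4, 4 libraries of each. Gut was higher in licensing genes, Ccne1 and Ccnd3, and midbrain in Ccnd1, Ccnd2 and the inhibitors Cdkn1b and Cdkn2c. Of the members, 15 were called higher in gut (34.9% of the 15345 genes tested were called higher) and 9 lower (31.9% of all genes). The median log2 fold change was 0.09 over the members and 0.02 over all genes, and 15 members were not called. With each library left out in turn, 5 to 8 were called lower (5 without A41 or A43, 6 without A39, A40 or A42), and the calls lost in either direction were Cdk4, Cdk2, Rrm2, Top2a and Ccnb1. The share of all genes called in these fits is not given. The median over the members was then 0.01 to 0.17, and that over all genes 0.03 to 0.05.

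The D-type cyclins split. Ccnd1 was 219, 187, 204 and 197 CPM in gut and 579.6, 571, 643 and 600.4 CPM in midbrain, a log2 fold change of −1.57 (SE 0.06, adjusted p = 3.09e-08 by edgeR). For Ccnd2 the 4 guts held 337, 305, 371 and 319 CPM and the log2 fold change was −1.33. Ccnd3 was 309, 345, 325 and 357 CPM in gut and 139, 126, 145 and 121 CPM in midbrain (log2 fold change 1.34). None of the 3 cyclins overlapped between the tissues. Cdk6 was higher in gut (log2 fold change 1.29), with 13.6 and 13.3 CPM in homozygous and 4.45 and 8.92 CPM in wild-type guts against 3.52 to 4.72 CPM in midbrain.

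Ccne1 was 103, 93.1, 102 and 123 CPM in gut and 35.6, 32.9, 44.4 and 34.2 CPM in midbrain, a log2 fold change of 1.52. All guts stood well above all midbrains for Ccne1, whereas E2f1 was lower in gut without overlap (37.9 ± 1.71 against 61.5 ± 4.59 CPM, n = 4 each, log2 fold change −0.69). Of the licensing genes 7 of 9 were called higher in gut and none lower. Cdt1 led them (110.2 ± 10.4 against 64.4 ± 11.9 CPM, log2 fold change 0.79), and Mcm7 was lowest (log2 fold change 0.02, not called). Of the synthesis genes Tyms was higher (105 ± 2.85 against 72.9 ± 7.32 CPM) and Rrm2 lower (219.8 ± 21.9 against 258 ± 31.5 CPM, adjusted p = 0.0385 by edgeR).

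Mitotic genes differed less, with 8 of 13 not called. Birc5, the survivin subunit of the passenger complex, was highest (94.9 ± 8.15 against 66.1 ± 6.64 CPM, log2 fold change 0.53) and Top2a lowest (411 ± 49.7 against 538 ± 126 CPM, log2 fold change −0.38), with the homozygous midbrain A39 at 719 CPM and the other midbrains at 429 to 520.3 CPM. Mki67 was 213 ± 22.2 against 192 ± 60.9 CPM and not called. Cdkn1b was 34.7, 39.4, 39.8 and 38.4 CPM in gut and 86.9, 89.4, 95.5 and 79.9 CPM in midbrain (log2 fold change −1.20), Cdkn2c was lower by a log2 fold change of −0.90, and Cdkn1a was alike in its means (13.8 ± 4.32 against 13.6 ± 2.18 CPM, log2 fold change 0.00, 95% interval −0.48 to 0.48). Markers of other cell types differed as well. Summed neuron markers were 52.1 to 98 CPM in gut and 2210 to 2986 CPM in midbrain, liver markers 4303 to 6881 against 0.37 to 13.8 CPM (6 of 6 called higher in gut), and erythroid markers 7195 to 14609 against 2375 to 4546 CPM (6 of 6). Their part in the members' differences was not tested.

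Forebrain and neural tube were compared within line B8, 4 libraries of each. Genes of replication and mitosis, Ccnd1, Cdkn1b and Cdkn2c were higher in forebrain, and Ccnd3, Ccne1 and Cdkn1a were lower. Of the 39, 27 were called higher in forebrain, against 16.7% of the 15167 genes tested, and 3 were called lower, against 19.3% of all genes. The log2 fold change was above 0 for 36 of 39 members, with a median of 0.36 against 0.01 over all genes. Called higher were 8 of 9 licensing, 3 of 4 synthesis and 10 of 13 mitotic members, and the number called was 23 to 35 when a library was left out. The share of all genes called in those fits is not given. The median over the members was then 0.33 to 0.45, and that over all genes at most 0.02.

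The licensing inhibitor Gmnn was 70.3, 55.5, 84.7 and 64.3 CPM in forebrain and 53.8, 30.9, 42.8 and 38.6 CPM in neural tube (log2 fold change 0.71). Its forebrain values all exceeded its neural tube values, by little at the nearest pair. Rrm2 was 401, 332, 307 and 334 CPM in forebrain and 266, 174, 236 and 193 CPM in neural tube (log2 fold change 0.65, SE 0.11, adjusted p = 0.00106 by edgeR), without overlap. Mcm4 (log2 fold change 0.21) and Tyms (0.16) were the lowest of their groups and not called, and so was Bub1, a spindle checkpoint kinase (0.15). Mki67 was highest of the mitotic genes (213 ± 24.8 against 141 ± 26.1 CPM, log2 fold change 0.57), and Top2a was 557 ± 34 against 392 ± 22.4 CPM (log2 fold change 0.48) without overlap. With wild-type libraries alone the calls of Mki67, Ccnb2 and Cdk1 were lost, while all 30 called members kept their sign. Of the members whose promoters are printed above, those with E2F letters had log2 fold changes of 0.32 (Mcm5) and 0.34 (Mcm6). Those with CHR and NF-Y letters had 0.57 (Mki67), 0.48 (Top2a) and 0.27 (Cdk1, which holds all 3 motifs). The 2 printed without these letters had −0.61 (Ccnd3) and −1.32 (Cdkn1a). Bub1, not printed, also holds CHR and NF-Y letters. Members not printed also had promoters without any of these letters. Cdk4, Cdk6, E2f1, Birc5, Tyms (0.16) and Cdkn2c (1.85, in 1 of its 2 promoters) were above 0, and Ccne1 (−0.50) was below. The printed promoters were chosen after the values were seen, and no relation of letters to fold change was tested.

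E2f2 led the cyclin E group (34.3 ± 1.66 against 21.4 ± 3.37 CPM, log2 fold change 0.66). Ccne1 ran against it, at 69.8, 44.4, 50.2 and 46 CPM in forebrain and 86.4, 64.1, 78.7 and 63 CPM in neural tube (log2 fold change −0.50). Ccnd1 was 470.4, 527, 497 and 438 CPM in forebrain and 238, 265, 274 and 254 CPM in neural tube (log2 fold change 0.88). Ccnd3 was lower in forebrain (177 ± 24.7 against 263 ± 11.5 CPM, log2 fold change −0.61), again opposite to Ccnd1 and without overlap. Ccnd2 (584 ± 134 against 438 ± 47.1 CPM) and Cdk6 (4.03 ± 1.54 against 3.45 ± 0.934 CPM) were not called.

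The 3 inhibitors differed in both directions. Cdkn2c was 13.3, 19.5, 22.3 and 18.3 CPM in forebrain and 6, 5.08, 5.03 and 3.95 CPM in neural tube (log2 fold change 1.85, SE 0.18, adjusted p = 3.63e-05 by edgeR). Cdkn1b was 97.6 ± 13.6 against 57.1 ± 3.17 CPM (log2 fold change 0.75). Cdkn1a was 13.6, 17.1, 19.6 and 17.1 CPM in forebrain and 39.2, 41.9, 44.9 and 38.7 CPM in neural tube (log2 fold change −1.32), so that all forebrains were below all neural tubes. Summed progenitor markers were 2788 to 3035 CPM in forebrain and 1410 to 1654 CPM in neural tube, with 5 of 6 called higher, and neuron markers overlapped (775 to 1755 against 1171 to 1432 CPM, 1 called higher and 2 lower of 8). The part of these cell types was not tested.

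Homozygous and wild-type embryos were compared in 12 pairs of groups, which asks whether loss of a boundary moves the cell cycle genes. No member was called in any of them. Over the 12 comparisons 0 of 468 tests of members passed (smallest adjusted p = 0.419 by edgeR), while 21 of 180439 tests of all genes did, and 460 of the 468 fold changes lay within 0.5 on the log2 scale. Calls over all genes were 0% in the hearts and lungs of B2, in the hearts of B3 and B5, in the face of B5, in the gut of B4 and in the forebrain of B8, 0.0131% in B3 face, 0.00677% in B4 midbrain, 0.0723% in B6 face, 0.0329% in B7 face and 0.0132% in B8 neural tube. At an unadjusted p under 0.05 there were 56 member tests, 12% of them, against 6.41% of all tests. The members tend to vary together, so that such counts do not add up independent evidence. DESeq2 called 1 member (Tyms in B3 heart), and 0.633% of all genes there.

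The median of the members was more than 0.2 from 0 on the log2 scale in 3 comparisons, B8 neural tube, B4 midbrain and B3 heart. In B8 neural tube 36 of 39 were above 0 (homozygous higher, median log2 fold change 0.24), and 16 passed the unadjusted threshold, against 10.0% of all genes. Rrm2 had the smallest p, with 266 and 236 CPM in the homozygous pair and 174 and 193 CPM in the wild-type pair (log2 fold change 0.45, SE 0.10, adjusted p = 0.419 by edgeR). Both homozygous values were above both wild-type values. Without A35, a homozygous library, 7 members were called, all higher, where 6.48% of all genes were called, and without the filter on low counts 4 were (Gmnn, Cdc6, Rrm2 and Pcna), against 3.13% of all genes. Summed neuron markers were 1171 to 1255 CPM in homozygous and 1324 to 1432 CPM in wild-type neural tubes, and progenitor markers had medians of 1484 against 1648 CPM, with 0 of 8 and 0 of 6 called. The part of either cell type was not tested.

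In B4 midbrain 38 of 39 members were above 0 (median 0.25), and 11 passed the unadjusted threshold against 7.25% of all genes. Cdk1, the kinase of mitotic entry, was 118 and 126 CPM in the homozygous and 100.3 and 95 CPM in the wild-type midbrains (log2 fold change 0.33, adjusted p = 0.668 by edgeR). The groups did not overlap for Cdk1. Of the homozygous midbrains, A39 was the higher in Mki67 (280.4 CPM, against 175 in A37 and 140.1 and 174 in the wild-type midbrains). Without A37, which leaves A39 as the 1 homozygous library, 13 members were called, all higher, where 3.62% of all genes were called. Summed neuron markers were 2210 to 2530 CPM in homozygous and 2959 to 2986 CPM in wild-type midbrains and progenitor markers 3372 to 3810 against 2992 to 3218 CPM, with 0 of 8 and 0 of 6 called. Sums of regional lists differed too, with no gene called. Midbrain markers were 164 to 293 CPM in the homozygous and 383 to 453 CPM in the wild-type midbrains. Face markers were 100.1 to 184 against 194 to 224 CPM and neural tube markers had medians of 32.4 against 14 CPM. None of these lists overlapped. Forebrain markers did overlap, at 131 to 458 CPM in the homozygous and 120.2 to 145 CPM in the wild-type midbrains (median log2 fold change 1.90). The part of these cell types and regions was not tested.

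B3 heart leaned the other way, with 34 of 39 members below 0 (median −0.22) and 10 past the unadjusted threshold against 9.47% of all genes. Tyms was 41.9 and 50.6 CPM in the homozygous hearts and 71 and 78 CPM in the wild-type hearts (log2 fold change −0.69, SE 0.14, adjusted p = 0.524 by edgeR and 0.0227 by DESeq2). These groups did not overlap. Summed heart muscle markers were 16801 to 19109 CPM in homozygous and 9369 to 14574 CPM in wild-type hearts, with 0 of 6 called, and markers of gut were 1.83 to 2.37 against 17.6 to 109 CPM, while erythroid markers overlapped (21290 to 63005 against 26410 to 98221 CPM). The part of these cell types was not tested. In B3 face 32 of 39 members were below 0 (median −0.08), 10 passed the unadjusted threshold against 9.49% of all genes, and Rrm1 was 247 and 255 CPM with the deletion and 302 and 299 CPM without it (log2 fold change −0.26, adjusted p = 0.503 by edgeR, and 0.0365 without the filter on low counts, where 1.96% of all genes were called).

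The other 8 medians lay between −0.04 and 0.11. Members above 0 numbered 31 of 39 in B8 forebrain (median 0.11), 30 in B7 face (0.05), 28 in B2 heart (0.06), 26 each in B6 face and B4 gut, 22 in B5 heart, 18 in B2 lung and 16 in B5 face. In the B2 hearts Ccnd2 was 219.7, 254, 209 and 217 CPM in the 4 homozygous hearts and 179.7 to 211 CPM in the 4 wild-type hearts, overlapping (log2 fold change 0.19), and 1 member passed the unadjusted threshold against 4.85% of all genes. In the B2 lungs no member passed it against 3.19% of all genes, and Plk1 was 73 ± 4.36 CPM with the deletion and 95.8 ± 38.7 CPM without it (n = 6 each, log2 fold change −0.34), with E5420-07 at 169 CPM and E5420-09 at 107 CPM the highest. Without these lungs the log2 fold change of Plk1 was −0.02. In B4 gut 2 members passed against 6.9%, and Cdk6 had the largest fold change of all 468 (0.99), with the 4 values given above. Without the wild-type gut A44, which leaves 1 wild-type library, Cdk6 was called (log2 fold change 1.58, adjusted p = 0.00479 by edgeR), as it was without the filter on low counts (1.00, adjusted p = 0.000883). In these fits 3.38% and 2.29% of all genes were called.

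The proliferation marker Mki67 had the smallest p in the faces of 3 lines, in no common direction. It was 275 and 222 CPM in the homozygous and 197 and 215 CPM in the wild-type faces of B5 (log2 fold change 0.30), where 0 members passed the unadjusted threshold against 3.21% of all genes. In B6 it was 161 and 108 against 191 and 206 CPM (log2 fold change −0.58), where 1 member passed against 8.65%, and in B7 206 and 172 against 214 and 294 CPM (log2 fold change −0.44), where 3 passed against 7.55%. Mki67 was thus lower in homozygous faces of B6 and B7 and higher in those of B5, all without an adjusted p under 0.05. Leaving out a library changed this: Mki67 was called in B6 without A5 (log2 fold change −0.89) and in B7 without A1 (−0.58), and in B5 without A20 it was not among the 4 called (Gmnn, Cdk4, Birc5 and Cdk6). Of all genes 2.54%, 1.66% and 7.42% were called in these fits. Without the filter on low counts Mki67 was called in B6 (adjusted p = 0.0036 by edgeR) and in B7 (0.00127), where 2.93% and 2.07% of all genes were.

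In the B5 hearts 0 members passed against 0.748%. Cdkn1a was 31.6 and 37.4 CPM in the homozygous and 27.2 and 25.6 CPM in the wild-type hearts (log2 fold change 0.38, adjusted p = 1 by edgeR). Of the homozygous pair, A21 held face markers at 733 CPM and neuron markers at 523 CPM, and A22 held 114 and 21.6 CPM. This comparison thus rests on 2 unlike homozygous hearts. In the forebrains of B8 Ccnd2 was 529 and 421 CPM in libraries labelled homozygous and 708 and 677 CPM in those labelled wild-type (log2 fold change −0.55, adjusted p = 0.826 by edgeR), and 2 members passed against 5.57%. Ccnd2 was called without A29 (−0.70) and, beside Ccne1 and Mcm5, without A31 (−0.39), which leaves 1 library of those labelled homozygous in each case, with 4.92% and 2.13% of all genes called.

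**Figure D5:**
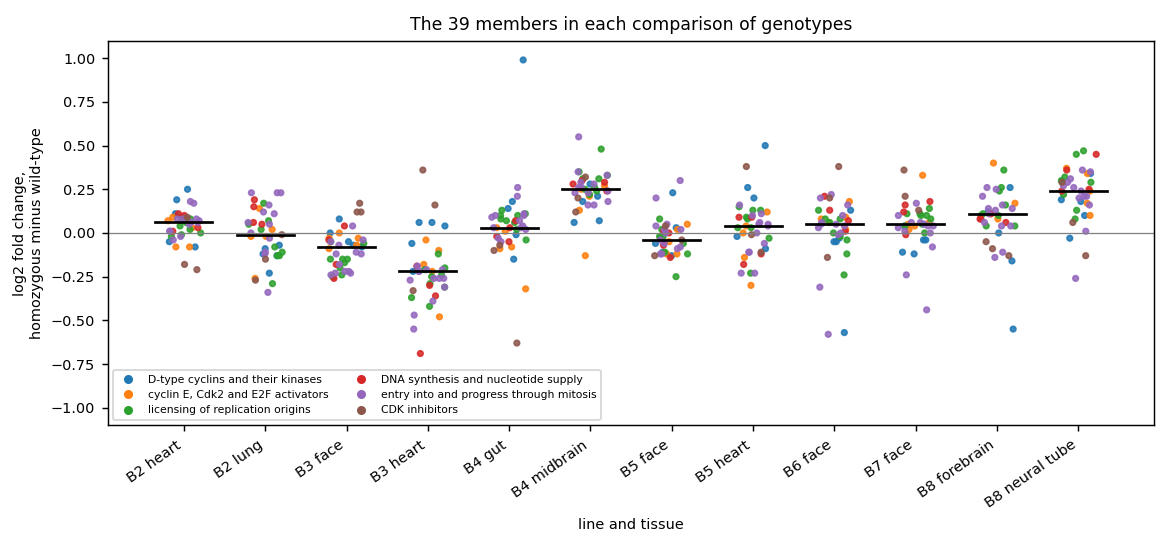
Log2 fold change (homozygous minus wild-type) of the 39 members in each of the 12 comparisons of genotypes, with colours by role and the median of the members as a black line. The points of B4 midbrain (median 0.25) and B8 neural tube (0.24) lie mostly above 0 and those of B3 heart (−0.22) mostly below, and no point is a called difference.

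Whether the effect of genotype differed between the 2 tissues of a line was tested by an interaction term in lines B2, B3, B4, B5 and B8. Of 195 member tests 0 were called (smallest adjusted p = 0.461 by edgeR, Tyms in B3) and 10 had an unadjusted p under 0.05, while 0.00622% of the 80408 tests of all genes were called. The lean of B3 heart, B4 midbrain or B8 neural tube is therefore not shown to differ from that of the other tissue of its line.

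A list of 83 other cell cycle genes gave the surroundings of the members. It was called in no comparison of genotypes, and its median log2 fold change was −0.23 in B3 heart, 0.21 in B4 midbrain and 0.21 in B8 neural tube, in the direction of the members. Between tissues, 49 of the 82 tested were called higher and 9 lower in face than heart (39.8% and 40.1% of all genes). The counts were 46 and 20 of 82 for lung against heart (41.7% and 38.9%), 19 and 22 of 81 for gut against midbrain (34.9% and 31.9%), and 50 and 2 of 81 for forebrain against neural tube (16.7% and 19.3%). Cdkn1c, an imprinted inhibitor of the family of Cdkn1a and Cdkn1b, was 615 ± 78.7 CPM in face and 1381 ± 254 CPM in heart (log2 fold change −1.18, adjusted p = 4.49e-10 by edgeR), and 254 ± 65.6 CPM in forebrain and 1030 ± 118 CPM in neural tube (log2 fold change −2.06, adjusted p = 1.12e-05 by edgeR). In lung it was 425 ± 208 CPM and in the B2 hearts 2192 ± 227 CPM (log2 fold change −2.38). The sign of Cdkn1c was that of Cdkn1a in all 3. In gut Cdkn1c was higher than in midbrain (808 ± 86.4 against 566 ± 88 CPM, log2 fold change 0.52), where Cdkn1b and Cdkn2c were lower. The other genes with the largest called differences were Skp2 (1.04), which targets Cdkn1b for degradation, Gins1 (0.78) and Rbl2 (−1.11), a pocket protein related to the retinoblastoma protein, between face and heart, and the polymerase subunits Pole (2.45) and Pola1 (2.22) and the inhibitor Cdkn2b (−3.14) between lung and heart. Between gut and midbrain they were E2f4 (0.89), Tk1 (0.88), Cdc25b (−1.49) and Rb1 (−1.22), and between forebrain and neural tube the cytokinesis genes Prc1 (0.87) and Ect2 (0.83) and the kinase Cdk7 (−0.39).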

How the data were processed

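RNA of 64 dissected tissues of E11.5 embryos was sequenced, aligned by the authors with STAR to mouse build mm10 and summarised per gene with RSEM, whose tables they deposited. The tools are named in the study's methods or the submitters' processing notes, and no strand setting is stated. The deposited expected counts are RSEM's estimates of reads per gene, not normalized, and were rounded to whole numbers for the tests. The deposited TPM (transcript abundance per effective length, scaled to the library, from the authors' RSEM run) was used to compare genes within a library. Each table held 69690 entries, of which 43346 Ensembl genes were kept. No 2 libraries held the same values: the lowest chi-square per gene over 64 replicate pairs was 6.26. The 23 Hi-C samples were not analysed here.

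The 12 comparisons of genotypes were fitted separately. The 4 of tissues were fitted within line with genotype as a covariate (for face and heart, strata of line and genotype). Each fit used edgeR 4.0.16 in R 4.3.3 (filterByExpr, TMM, quasi-likelihood F-test, Benjamini-Hochberg adjustment over all genes tested, two-sided, threshold 0.05). The procedure was run on simulated data with known changes, which were larger than any change of a member between genotypes. That run does not measure how small a change the comparisons of genotypes could find. DESeq2 1.42.0, RLE factors, no filter, each library left out, wild-type libraries or single lines alone, lungs without E5420-07 and E5420-09 and, for B2 lungs, sex and embryo code as covariates were the alternatives. The tests of genotype by tissue were added after the data were seen. Sex is labelled for the lungs only and is not in the main fits.

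The members, their roles and the marker and gene lists were chosen with earlier results of these data known. Named with values were, in each comparison of tissues, the highest and lowest member of each role, 9 cyclins, inhibitors and proliferation markers in every tissue, the member with the smallest p in each comparison of genotypes, and the 2 largest called differences in each direction among other cell cycle genes. Genes, promoters and hearts named beyond these were chosen after their values were seen. A gene of the erythroid list is not reported here and is left out of its sums.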

Additional observations from a re-analysis of the deposited data

Results flagged for a closer look

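In groups of 4 or 6 libraries, 9 members were searched for a library whose gap to the nearest other exceeded Dixon's 95% critical value. Such a library was found in 8 of 36 searches. The searches share the same libraries and the members tend to vary together, so this count cannot be set against a rate for independent searches. Of the libraries found, E5420-07 and E5420-09 had already been singled out above. The wild-type B2 lung E5420-07 accounted for 5. It held Top2a at 209 CPM (757 to 889 in the other 5 wild-type lungs), Ccnd1 at 376 CPM (241 to 269), Ccnd3 at 406 CPM (154 to 164), Cdk6 at 47 CPM (34.3 to 36.4) and Cdkn1b at 59.4 CPM (31.9 to 39.2). The wild-type lung E5420-09 held Ccnd2 at 402 CPM, where the other 5 had 153 to 242 CPM. In the homozygous B2 hearts, A58 held Top2a at 238 CPM (199 to 205 in the other 3) and Ccnd1 at 130 CPM (117 to 119). No genotype effect on a member was shown to differ between the tissues of a line.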

How the results depend on the processing

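Of 121 alternative counts of called members, 103 stayed within 1.5 times the reported count, and of 527 alternative log2 fold changes of named members 461 kept their direction and call, 24 lost and 23 gained a call and 19 changed sign. Between genotypes, where no member was called, the filter, the tool and single libraries changed that. Without the filter 1 member was called in B3 face, 1 in B4 gut, 1 in B6 face, 1 in B7 face and 4 in B8 neural tube, and with DESeq2 1 in B3 heart, and the cause was not tested. With each library left out, counts ran from 0 to 1 in B4 gut, B6 face and B7 face, 0 to 13 in B4 midbrain, 0 to 4 in B5 face, 0 to 3 in B8 forebrain and 0 to 7 in B8 neural tube; a lone library is then assumed to vary like the other group. For face minus heart, line B7 alone called 12 higher and lines B5 and B6 alone 5 lower, and for gut minus midbrain the members lower were 5 to 8 with a library left out and 5 in wild-type libraries alone, all fits on fewer libraries. The share of all genes called is not given for these fits. The signs that changed were nearly all of small differences. For face minus heart they were Ccnd2 (0.18 in B5 alone, 0.11 in wild-type libraries, −0.11 to 0.02 with a line left out), E2f2 (0.04 in B6 alone), Cdt1 (0.00 in B3 alone), Top2a (−0.01 in B3, −0.03 in B6 and −0.04 in B7 alone, −0.01 to 0.21 with a line left out) and Cdkn1b (0.10 in B7 alone, −0.09 to 0.01 with a line left out). For lung minus heart, Rrm2 was 0.04 without the 2 lungs that stood apart and −0.07 to 0.00 with a library left out. For gut minus midbrain, Mcm7 was −0.02 to 0.09 and Cdkn1a −0.19 to 0.19 with a library left out, and Cdkn1a was −0.01 with DESeq2, with RLE factors and without the filter. For forebrain minus neural tube, Cdk6 was −0.08 to 0.49 with a library left out. Median levels kept within 1 SD apart from Cdk6 in wild-type hearts (3.34 CPM) and guts (6.69 CPM). No paired analysis was possible because the labels share no replicate numbers between groups. The B2 lungs share the first part of their codes (E5403, E5406 and E5420) across genotypes, and with that code as a covariate 0 members were called and Plk1 was −0.15. Low levels limit Cdk6 most, and 2 libraries a group limit most comparisons of genotypes.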
